A study of Mus musculus with 4 samples.

Results

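The genes described here are 44 regulators of embryonic patterning outside the Hox clusters, chosen by name as developmental genes that Polycomb repression is known to cover in other tissues. They comprise 42 transcription factors and the secreted signals Wnt1 and Bmp4. Each gene was read out by the ChIP-seq peaks within 1 kb of its transcription start, and by those in the gene body plus 10 kb on either side. Of the 44 genes, 40 could be placed on the mm9 peak lists, among 41174 genes placed in all. A start was listed for 33 of these 40, among 23710 placed genes with a listed start. Pax3, Tbx3, Tbx5, Wt1, En2, Dlx5 and Hand1 were placed with no listed start, and either end of the gene record was used for them. Gata4, Gata6, Sox17 and Hand2 could not be placed by the main rule and are given separately.

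The study mapped PHF6 and the histone H3 lysine 27 marks in mouse pre-B acute lymphoblastic leukemia cells by chromatin immunoprecipitation and sequencing. All groups were the same cells, a pre-B leukemia of C57BL/6J strain with BCR-ABL1 overexpressed and p19 null. One library each was made with an antibody to PHF6, to acetylated H3K27 (H3K27ac) and to trimethylated H3K27 (H3K27me3), beside an input DNA library not analysed here. With 1 library per antibody and no comparison of cell states, no difference carries a replicate check. The labels do not say whether the cells were 1 clone or came from pooled animals.

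Polycomb repressive complex 2 writes H3K27me3 at developmental regulators and keeps them silent in lineages that do not use them. H3K27ac sits on the same lysine, so 1 histone tail carries one mark or the other, and it accompanies active promoters and enhancers. PHF6 is a nuclear zinc finger protein of the PHD class that is mutated in T-cell acute lymphoblastic leukemia. Most of the genes here have no known role in B cells, where Pax5 is the family member that maintains identity.

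The libraries as a whole set the scale for what follows. B-lineage genes had H3K27ac at all 6 starts that could be placed, with summit heights from 106 to 329, and none of the 6 starts had H3K27me3, so the defining genes of the labelled cell type were acetylated there. The summit height is a whole number deposited with each peak, and it was compared only within 1 antibody because the sequencing depth is unknown. The H3K27me3 list was not limited to silent genes. In the gene body plus 10 kb, 6 of 10 placed B-lineage genes had an H3K27me3 peak, with heights up to 42 at Ebf1 and Cd79b. Among 11 placed housekeeping genes, 8 had an H3K27me3 peak in the gene body plus 10 kb, with a median tallest height of 71 and 163 at Actb, the cytoskeletal actin gene. No H3K27me3 peak at the 40 regulators was taller than 26. The locus of the deleted p19, Cdkn2a, could not be placed and was not checked.

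H3K27me3 lay at the starts of a minority of the regulators. A peak came within 1 kb of the start in 8 of 33 genes (24.2%, exact binomial 95% interval 11.1 to 42.3), against 2.75% of all placed genes and 3.4% of protein-coding ones. The 8 genes were Wnt1, Pax7, Nkx2-5, Neurog1, Neurog2, T, Pax8 and Pax6. Intervals here cover counting error only. Their heights ran from 11 to 19, with a median of 15.5, and the 651 placed genes with the mark at the start had a median of 17 and quartiles of 14 and 23. The median of the regulators lay within those quartiles. The other 25 starts had no H3K27me3 peak in this list. A Polycomb mark at the outer end of the record was therefore found for 8 of the 33 genes named as Polycomb targets. Read at any listed start, H3K27me3 was found at 10 of 33 (30.3%, 15.6 to 48.7), with Lhx9 and Pax2 added, against 3.1% of all placed genes.

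The count depended on peak edges. With the summit itself required within 1 kb, H3K27me3 remained at 4 of 33 starts (12.1%, 3.4 to 28.2), those of Pax7, Nkx2-5, Neurog1 and T, against 1.75% of all placed genes. Without the regions present in all 3 lists it remained at 3 of 33 (9.09%), against 0.704%. Pax8, a thyroid and kidney factor, was just inside with its peak edge 935 bp from the start, and Pax6, the eye and forebrain factor, was inside at 631 bp. Pax2, a kidney and optic stalk factor, was just outside at 1570 bp, although an H3K27me3 peak with a height of 18 lay at another of its listed starts. For PHF6, Foxa1 was inside at 815 bp and Bmp4 outside at 1353 bp.

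In the plot of summit heights by gene, the 8 starts with H3K27me3 stand at the top and all 8 also have PHF6.

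**Figure D1:**
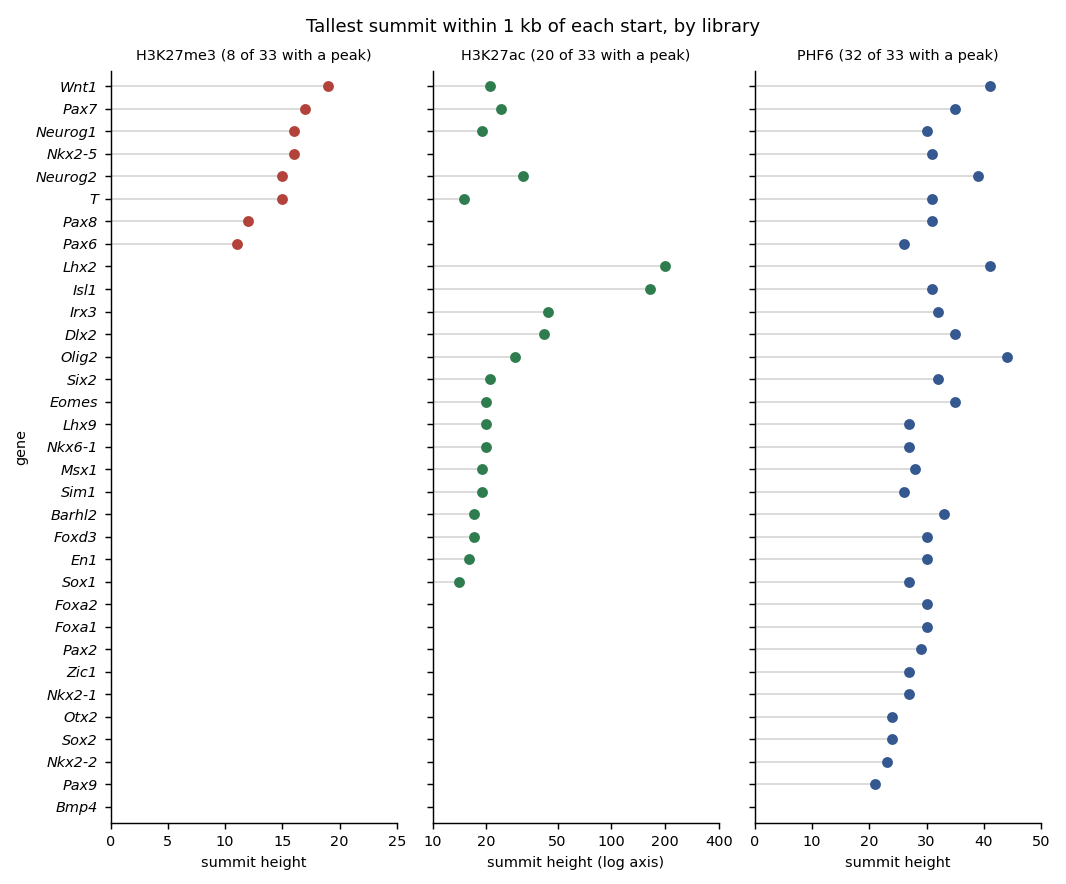
Summit height of the tallest peak that overlaps the window of 1 kb around the start, for each of the 33 genes with a listed start. There is 1 panel per library, with no point where the list has no peak, and the H3K27ac axis is logarithmic. The summit itself can lie outside the window: it lay inside at 21 starts for PHF6, 17 for H3K27ac and 4 for H3K27me3. PHF6 had a peak at 32 of the 33 starts, H3K27ac at 20 and H3K27me3 at 8, and Lhx2 at 200 and Isl1 at 164 are the only H3K27ac heights above 44.

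The tallest H3K27me3 peak to reach within 1 kb of a start was that of Wnt1, a secreted signal of the midbrain and neural crest. Its peak at chr15:98619939-98622755 (mm9) had a height of 19 and reached over the start into the 3974 bp gene record. The summit of that peak lay more than 1 kb from the start. The start of Pax7, a factor of muscle satellite cells and dorsal neural tube, had a height of 17. Nkx2-5, the cardiac homeobox factor, and Neurog1, a proneural factor, both had 16. The RefSeq promoter windows of these 4 genes, from 250 bases before to 50 bases after a listed start, are printed with every CpG dinucleotide in capitals, to show how unequal they are in CpG content. Wnt1 lies at chr15:98789607-98789906 on the plus strand, Pax7 at chr4:139832919-139833218, Nkx2-5 at chr17:26841516-26841815 and Neurog1 at chr13:56252131-56252430 on the minus strand, all in GRCm38.p6.
Wnt1: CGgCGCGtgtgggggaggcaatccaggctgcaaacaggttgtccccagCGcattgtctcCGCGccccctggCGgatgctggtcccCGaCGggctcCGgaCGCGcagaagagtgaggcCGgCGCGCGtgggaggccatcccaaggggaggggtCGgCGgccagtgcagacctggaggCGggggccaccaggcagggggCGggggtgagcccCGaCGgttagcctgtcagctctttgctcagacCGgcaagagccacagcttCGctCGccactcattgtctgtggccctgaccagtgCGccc
Pax7: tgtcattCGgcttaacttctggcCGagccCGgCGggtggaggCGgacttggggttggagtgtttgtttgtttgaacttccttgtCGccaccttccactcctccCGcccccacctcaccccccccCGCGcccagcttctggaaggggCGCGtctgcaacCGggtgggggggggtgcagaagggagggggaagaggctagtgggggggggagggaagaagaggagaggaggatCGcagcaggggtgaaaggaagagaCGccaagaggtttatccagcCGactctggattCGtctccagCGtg
Nkx2-5: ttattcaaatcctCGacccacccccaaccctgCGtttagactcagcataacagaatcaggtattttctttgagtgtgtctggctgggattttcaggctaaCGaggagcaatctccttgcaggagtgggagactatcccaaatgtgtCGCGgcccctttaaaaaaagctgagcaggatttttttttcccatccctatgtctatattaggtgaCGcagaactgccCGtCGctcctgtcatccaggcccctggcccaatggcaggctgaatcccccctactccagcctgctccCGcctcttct
Neurog1: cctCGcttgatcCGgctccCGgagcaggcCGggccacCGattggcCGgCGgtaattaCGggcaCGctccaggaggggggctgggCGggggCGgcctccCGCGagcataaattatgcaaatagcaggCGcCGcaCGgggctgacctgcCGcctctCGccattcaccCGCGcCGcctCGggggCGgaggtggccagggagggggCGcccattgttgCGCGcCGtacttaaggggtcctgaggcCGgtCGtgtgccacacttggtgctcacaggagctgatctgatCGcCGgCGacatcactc

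Neurog1 held 32 CpGs in its 300 bases and Wnt1 26, while Pax7 held 17 and Nkx2-5 held 9. The window of Nkx2-5 begins at a start 3423 bp inside the gene record, and its H3K27me3 was scored at the outer end of the record. The Pax7 start is 562 bp inside.

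Of the 8 starts with H3K27me3, 5 also had H3K27ac and PHF6. This was 5 of 33 genes with both histone marks (15.2%, 5.11 to 31.9), against 2.21% of all placed genes. Wnt1 had heights of 19 for H3K27me3, 21 for H3K27ac and 41 for PHF6. Pax7 had 17, 24 and 35 in the same order, and Neurog1 had 16, 19 and 30. At Neurog2, a proneural factor of the cortex, they were 15, 32 and 39. For T, the mesoderm factor brachyury, they were 15, 15 and 31. H3K27ac was low at each of the 5, from 15 to 32, and the H3K27me3 and H3K27ac peaks overlapped each other at all 5 starts.

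H3K27me3 without H3K27ac was found at 3 starts, those of Nkx2-5, Pax8 and Pax6 (9.09%, 1.92 to 24.3, against 0.531% of all placed genes). Nkx2-5 had an H3K27me3 height of 16 and a PHF6 height of 31. At Pax8 they were 12 and 31, and at Pax6 11 and 26. At another listed start of Nkx2-5, 3423 bp inside the record and the one whose promoter is printed, the state differed: an H3K27ac peak with a height of 21 (chr17:26977803-26978827, mm9) and a PHF6 peak of 31 lay there, and no H3K27me3 peak came within 1 kb. Read at any listed start, H3K27me3 without H3K27ac was left at Pax6 and Pax8, 2 of 33 (6.06%), against 0.519% of all placed genes. At the outer ends, each of the 3 H3K27me3 starts carried PHF6, where 70 of 126 placed genes in this state did (55.6%, 46.4 to 64.4).

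Most of the H3K27me3 at these genes lay away from the start. In the gene body plus 10 kb, 18 of 40 genes had at least 1 H3K27me3 peak (45.0%, 29.3 to 61.5), against 14.8% of all placed genes and 21.3% of protein-coding ones. The median gene record was 7.27 kb for the regulators, 6.44 kb for all placed genes and 17.2 kb for protein-coding genes. A longer window holds more peaks, and its part in these shares was not tested. Without the flanks 11 of 40 genes had a peak (27.5%, 14.6 to 43.9), against 8.68% of all placed genes and 13.9% of protein-coding ones.

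In bases, Pax2 had the most H3K27me3, 12.4 kb in 9 peaks with heights from 14 to 20, although none reached the outer end of its record. Of the window around its 91669 bp record 11.1% was covered, while Neurog2 had 32.1% of its window covered, Wnt1 20.8% and Lhx9 19.0%. Of the 9, 6 lay between 5042 bp upstream and 14326 bp downstream of the start, and 3 lay around the far end of the gene. Lhx9, a LIM homeobox factor of the gonad and limb, had 8.29 kb in 4 peaks, the tallest of 22 at another listed start 7724 bp inside the gene. Pax7 had 7.96 kb in 5 adjoining peaks from the start to 9712 bp downstream, with the tallest height of all the loci, 26, at chr4:139383132-139384658 (mm9). Neurog2 had 7.36 kb in 6 peaks on both sides of its 2904 bp gene.

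Wnt1 followed with 4.98 kb in 3 peaks and Olig2, a factor of motor neurons and oligodendrocytes, with 4.16 kb in 2 peaks. Nkx2-5 had 3.96 kb in 5 peaks, Pax8 3.56 kb in 2, Pax6 3.11 kb in 4 and Nkx2-1, the thyroid and lung factor, 2.63 kb in 3. Over these 10 genes no H3K27me3 height was above 26, which is the 81.6th percentile of that list. The remaining loci with the mark held from 0.383 kb at Foxa2 to 2.36 kb at Neurog1, and were those of Neurog1, T, Dlx5, Eomes, Sox1, Barhl2, Hand1 and Foxa2. The 53 H3K27me3 peaks at the 40 loci had a median height of 15 and a median width of 1110 bp, against 16 and 943 bp over all 5616 peaks of the list.

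The map of peaks along 6 genes shows how the H3K27me3 peaks sit against the other lists.

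**Figure D2:**
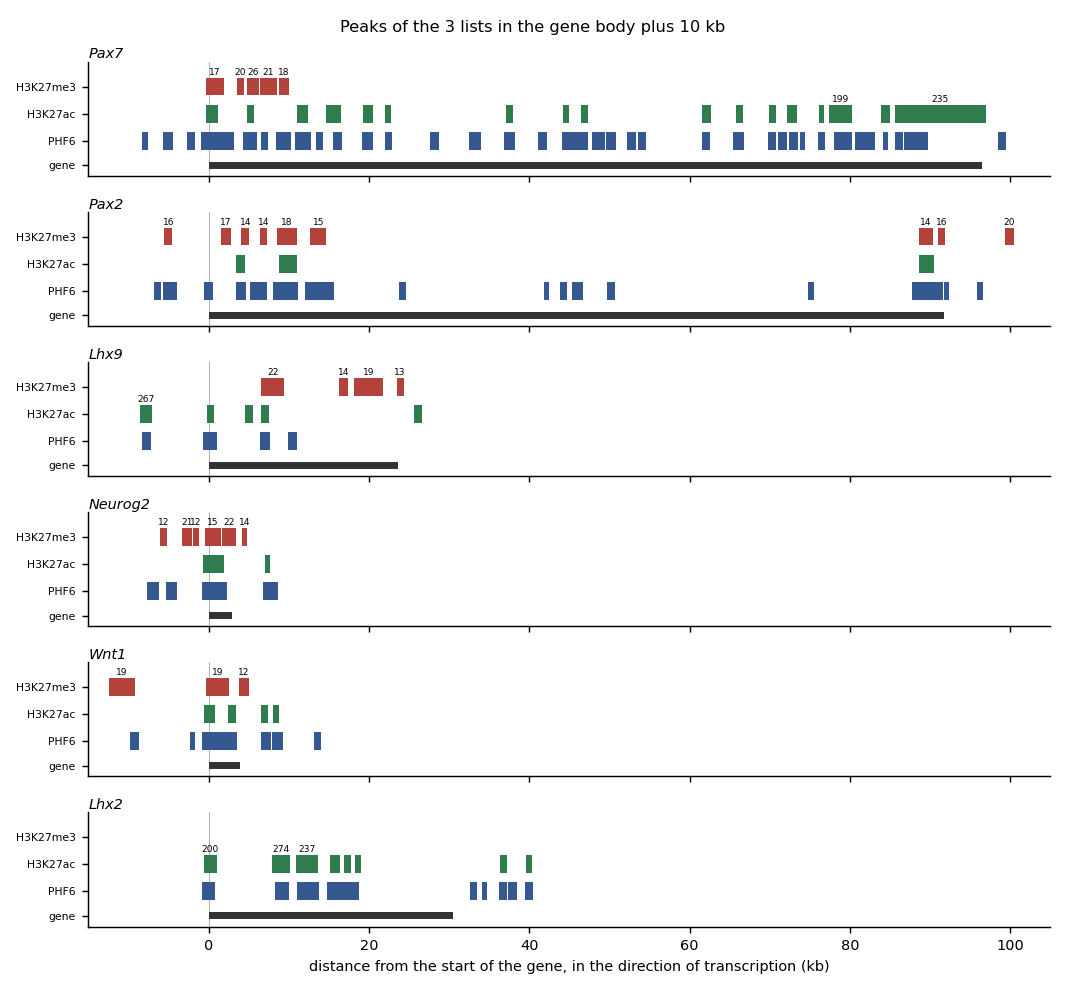
Peaks of the 3 lists in the gene body plus 10 kb of 6 genes, drawn as bars by distance from the start in kb, with the gene record in black; numbers are summit heights of H3K27me3 peaks and of H3K27ac peaks of 100 or more. Pax2 shows 9 H3K27me3 peaks, none within 1 kb of the outer end of its record. Pax7 shows 5 from the start onward and H3K27ac heights of 199 and 235 near its far end. Lhx2 shows no H3K27me3 peak.

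PHF6 was present at almost every regulator. A PHF6 peak came within 1 kb of 32 of 33 starts (97.0%, 84.2 to 99.9), against 54.8% of all placed genes and 66.3% of protein-coding ones. The exception was Bmp4, a secreted signal of the bone morphogenetic family, which had none of the 3 peaks at its start (1 of 33, 3.03%, against 39.3% of all placed genes). In the gene body plus 10 kb all 40 genes had PHF6 (100.0%, 91.2 to 100), against 67.7% of all placed genes and 83.7% of protein-coding ones. The loci held from 2 to 36 PHF6 peaks each with a median of 5, where protein-coding genes had a median of 3.

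These PHF6 peaks were of ordinary height. At the starts they ran from 21 at Pax9 to 44 at Olig2, with a median of 30, and all placed genes with PHF6 at the start had a median of 31 and quartiles of 25 and 39. Their summits often lay away from the start, at a median of 333 bp downstream over 37 peaks with quartiles of 174 bp upstream and 1332 bp downstream. When the summit itself had to fall within 1 kb, the share dropped to 21 of 33 (63.6%, 45.1 to 79.6), beside 48.0% of all placed genes and 59.2% of protein-coding ones. The near-complete PHF6 coverage therefore rested in part on wide peaks reaching the start, as at Olig2, where a 4857 bp peak had its summit 1799 bp downstream. Under that rule the regulators' interval included the share of coding genes.

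PHF6 alone, with neither histone mark at the start, was found at 9 of 33 genes (27.3%, 13.3 to 45.5), against 12.2% of all placed genes. The endoderm factors Foxa1 and Foxa2 both had a PHF6 height of 30 and Pax2 had 29. Nkx2-1 and Zic1, a neural zinc finger factor, had 27, and Otx2, a forebrain factor, and Sox2, the pluripotency and neural factor, had 24. Nkx2-2, a factor of ventral neural tube and pancreatic islet, had 23 and Pax9, a pharyngeal and tooth factor, had 21. At 10 regulators with neither mark PHF6 was found at 9 (90.0%, 55.5 to 99.7). Over all placed genes in that state it was found at 2892 of 12220 (23.7%, 22.9 to 24.4). Pax2, Nkx2-2, Foxa1 and Foxa2 had H3K27ac at another listed start, with heights from 13 to 24. Read at any listed start, PHF6 alone was left at 5 of 33 genes (15.2%, 5.11 to 31.9), against 12.2% of all placed genes, which lies inside that interval.

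**Figure D3:**
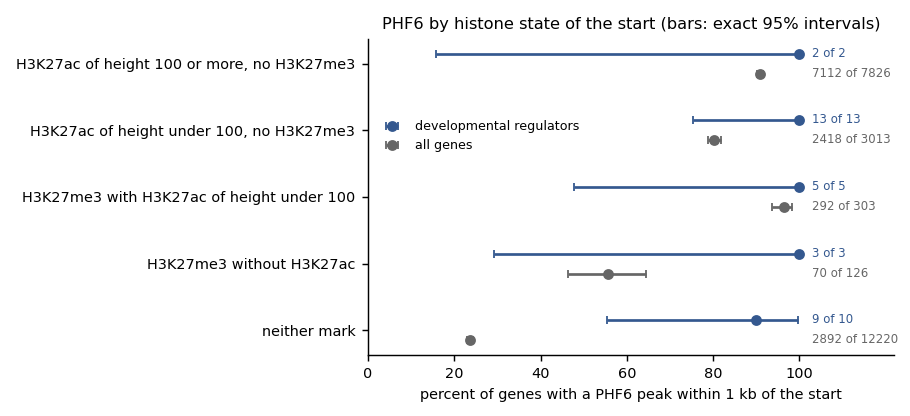
Share of genes with a PHF6 peak within 1 kb of the start in percent, by histone state of the start, for the developmental regulators and for all placed genes, with exact 95% binomial intervals and counts at the right. The regulators lie at 90.0 or 100.0 percent in the 5 states drawn, 2 of which hold 2 and 3 of them, and all genes fall to 55.6 percent with H3K27me3 alone and 23.7 percent with neither mark.

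H3K27ac was common at the regulators but low. A peak came within 1 kb of 20 of 33 starts (60.6%, 42.1 to 77.1), against 47.9% of all placed genes and 60.6% of protein-coding ones, so the regulators and coding genes had the mark in equal shares. The peaks of the regulators were lower. Their 20 heights ran from 14 to 200 with a median of 20 and quartiles of 18.5 and 29.75, where the 11364 placed genes with the mark had a median of 239 and quartiles of 65 and 314. A height of 100 or more was reached at 2 of 33 starts (6.06%, 0.743 to 20.2), against 33.9% of all placed genes.

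Lhx2 and Isl1 were the 2 exceptions. Lhx2, a LIM homeobox factor used in forebrain and hair follicle, had an H3K27ac height of 200 and a PHF6 height of 41 at its start, chr2:38194237-38195772 (mm9), within 1 kb of which the gene Gm46736 also starts. Further H3K27ac peaks of 274 and 237 lay 9030 bp and 12282 bp downstream, the second at another listed start of Lhx2 shared with the RNA gene Gm27197. Isl1, a LIM homeobox factor of motor neurons, heart and pancreas, had an H3K27ac height of 164 and a PHF6 height of 31 at chr13:117099084-117100666 (mm9). Neither gene had an H3K27me3 peak in its locus. Their promoter windows are printed for comparison with those of the H3K27me3 genes, again with CpGs in capitals, from RefSeq at chr2:38339031-38339330 on the plus strand and chr13:116309639-116309938 on the minus strand of GRCm38.p6.
Lhx2: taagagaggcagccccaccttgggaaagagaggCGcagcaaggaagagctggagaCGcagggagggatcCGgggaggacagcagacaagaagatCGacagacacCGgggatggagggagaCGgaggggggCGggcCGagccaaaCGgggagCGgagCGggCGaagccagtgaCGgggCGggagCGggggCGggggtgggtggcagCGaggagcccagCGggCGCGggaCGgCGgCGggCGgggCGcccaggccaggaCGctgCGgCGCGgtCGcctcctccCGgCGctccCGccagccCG
Isl1: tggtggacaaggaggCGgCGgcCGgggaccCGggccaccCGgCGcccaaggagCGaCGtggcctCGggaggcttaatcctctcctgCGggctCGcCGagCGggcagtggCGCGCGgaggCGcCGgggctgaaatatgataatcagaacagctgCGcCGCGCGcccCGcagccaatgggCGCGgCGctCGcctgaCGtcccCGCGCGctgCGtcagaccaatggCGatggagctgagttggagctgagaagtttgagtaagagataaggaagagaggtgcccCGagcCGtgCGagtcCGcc

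Lhx2 held 34 CpGs in 300 bases and Isl1 37, beside 32 for Neurog1, 26 for Wnt1, 17 for Pax7 and 9 for Nkx2-5.

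The other 13 starts with H3K27ac and PHF6 but no H3K27me3 had H3K27ac heights from 14 to 44. Irx3 and Dlx2, homeobox factors of heart, limb and forebrain, had H3K27ac heights of 44 and 42 and PHF6 heights of 32 and 35. Olig2 had an H3K27ac height of 29 beside the tallest PHF6 summit, 44. Six2, a kidney progenitor factor, had 21 and 32, and Eomes, a T-box factor also used in T and NK cells, had 20 and 35. Lhx9 and Nkx6-1 both had 20 and 27. For Msx1, a limb and craniofacial factor, the values were 19 and 28, and for Sim1, a hypothalamic factor, 19 and 26. Barhl2 had 17 and 33, Foxd3 17 and 30, En1 16 and 30 and Sox1 14 and 27. The offset of Foxd3 matched no more starts than the next best offset, so its values are uncertain. The order of these 13 by H3K27ac was not their order by PHF6.

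**Figure D4:**
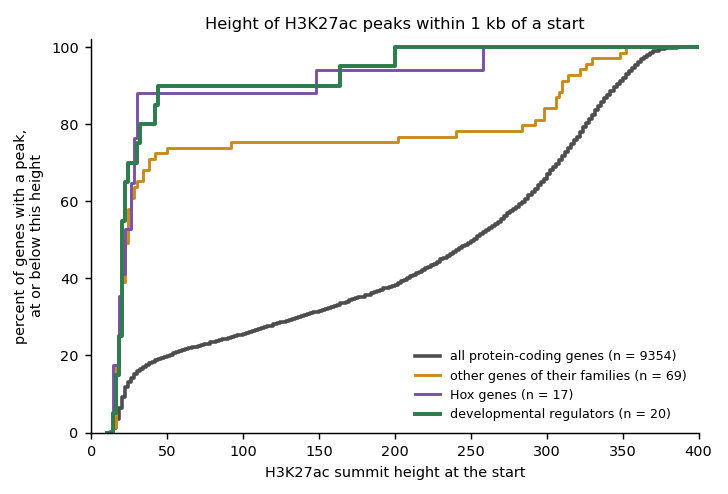
Cumulative percent of genes with an H3K27ac peak within 1 kb of the start, by summit height, for the developmental regulators, other genes of their families, Hox genes and all protein-coding genes. Among the regulators 18 of 20 lie below 100, while the median of protein-coding genes is 251.

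Taller H3K27ac occurred elsewhere in a few loci. In the gene body plus 10 kb, 34 of 40 genes had an H3K27ac peak (85.0%, 70.2 to 94.3), against 54.9% of all placed genes and 74.5% of protein-coding ones. A height of 100 or more was present in 6 of 40 loci (exact interval 5.71 to 29.8%), against 35.9% of all placed genes and 55.9% of protein-coding ones. The 6 were Lhx2, Isl1, Pax7, Lhx9, Dlx2 and Hand1. Pax7 had 17 H3K27ac peaks, with heights of 235 and 199 near the far end of the gene, 89456 bp and 78647 bp from its start, where no start of another gene lay within 1 kb. At Lhx9 the height of 267 lay 7867 bp upstream, at the start of the neighbouring gene 2310009B15Rik. Dlx2 had 119 at 7764 bp downstream of its start, outside the gene.

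No H3K27me3 peak overlapped any of these tall H3K27ac peaks. Both histone marks were present in 17 of 40 loci, against 12.2% of all placed genes, and Pax8 was the 1 locus with H3K27me3 and no H3K27ac (against 2.54%). PHF6 alone was present at Pax9, Sox2, Tbx5, Otx2 and Zic1, 5 of 40 loci, against 15.6% of all placed genes.

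Peak by peak, PHF6 lay on the H3K27me3 of these loci more often than on the list at large. Of 53 H3K27me3 peaks at the regulators, 33 overlapped a PHF6 peak (62.3%, 47.9 to 75.2), against 26.0% of all 5616. With H3K27ac the overlap was 15 of 53 (28.3%, 16.8 to 42.3), against 21.0%, which lies within the interval. Of 94 H3K27ac peaks, 91 overlapped PHF6 (96.8%, 91.0 to 99.3), against 71.7% of that list. Of 243 PHF6 peaks, 33 overlapped H3K27me3 (13.6%, 9.54 to 18.5), against 1.88%, and 86 overlapped H3K27ac (35.4%, 29.4 to 41.8), against 30.3%. Peaks of 1 locus are neighbours and not independent, so these intervals are too narrow.

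The promoter windows of the regulators were richer in CpG than those of other genes. Defining a CpG-rich window by at least 55% G+C and a ratio of observed to expected CpG of at least 0.65, 19 of 33 qualified (57.6%, 39.2 to 74.5), against 30.2% of all placed genes. The motif counted was CG, which reads the same on both strands. The median was 18 CpGs per 300 bases, from 6 at Lhx9 and Otx2 to 42 at Barhl2, against 8 over all genes. Genes with H3K27me3 at the start were CpG-rich in 3 of 8 and the others in 16 of 25, and the 2 intervals, 8.52 to 75.5 and 42.5 to 82.0, overlap. Over all placed genes the order was the opposite, with 47.8% CpG-rich where H3K27me3 was at the start and 29.7% where it was not. H3K27me3 was at 3 of 19 CpG-rich regulators (15.8%, 3.38 to 39.6), against 4.34% of all CpG-rich genes, inside the interval. Among other windows it was at 5 of 14 (35.7%, 12.8 to 64.9), against 2.06%. With H3K27ac under height 100, it was at 2 of 12 CpG-rich regulators (2.09 to 48.4), against 13.0%. In that state it was at 3 of 6 others (11.8 to 88.2), against 7.13%. Each window was taken at the listed start nearest the outer end of the record, while the marks were scored at the outer end. These lay 3423 bp apart at Nkx2-5, 562 bp at Pax7 and 403 bp at Neurog2, which had H3K27me3 and were not CpG-rich. Among the regulators without H3K27me3 they lay up to 9032 bp apart, at Nkx2-2. For such genes CpG content and marks were not read at the same site.

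CpG content moved with PHF6 over all placed genes, where 92.0% of CpG-rich and 38.7% of other windows had PHF6 at the start. Among the regulators PHF6 was at 19 of 19 CpG-rich starts (82.4 to 100) and at 13 of 14 others (92.9%, 66.1 to 99.8). Among genes whose window was not CpG-rich and whose outer end had no H3K27ac, PHF6 was at 7 of 8 regulators (87.5%, 47.3 to 99.7). Over all such genes it was at 21.1%. Among CpG-rich windows whose outer end had no H3K27ac, PHF6 was at 5 of 5 regulators (47.8 to 100). Over all genes of that class it was at 67.7%, which lies inside the interval. The 8 include Nkx2-5 and Pax9, whose windows lay 3423 bp and 3778 bp from the outer end. The listed start of the Nkx2-5 window had an H3K27ac peak with a height of 21. Low H3K27ac was seen in both classes. CpG-rich starts of all genes had H3K27ac in 89.3% with a median height of 281, and those of the regulators in 14 of 19 with a median of 20.5. In other windows the median was 135 for all genes and 20 for 6 of 14 regulators.

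The families differed in their counts. Over all placed genes, 14.8% had H3K27me3 in the locus. At the start, 2.75% had H3K27me3, 47.9% had H3K27ac and 54.8% had PHF6. Of 6 Pax genes, 4 had an H3K27me3 peak in the locus. At the outer end, 3 of 5 with a listed start had H3K27me3, and just 1 of the 5, Pax7, had H3K27ac. Pax2 had both marks at another listed start. Among the bHLH factors 4 of 5 placed genes had H3K27me3 in the locus (Neurog1, Neurog2, Olig2 and Hand1) and all 4 with a listed start had H3K27ac. Of 9 other homeobox genes (Six2, Otx2, En1, En2, Msx1, Dlx2, Dlx5, Irx3 and Barhl2), 2 had H3K27me3 in the locus, and none of the 7 with a listed start had it there. Of the 3 Fox genes, Foxd3 had H3K27ac at the outer end of its record, Foxa1 and Foxa2 had it at other listed starts, with heights of 15, 21 and 20, and all 3 had PHF6 at the outer end. The locus windows were unequal. Pax records ran from 21132 bp at Pax9 to 96472 bp at Pax7, and those of the other homeobox genes from 3144 bp at Irx3 to 25519 bp at Six2. These counts are small, and no difference between families was tested.

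The 7 genes placed with no listed start showed the same low heights, with 1 exception. At either end of the record, H3K27ac and PHF6 heights were 15 and 23 for Pax3, 13 and 28 for Tbx3, 21 and 35 for Wt1, 21 and 34 for En2 and 16 and 21 for Dlx5. Tbx5, a heart and forelimb factor, had a PHF6 height of 26 and no H3K27ac. Hand1, a heart and trophoblast factor, had an H3K27ac height of 101 at chr11:57640313-57642127 (mm9), with a PHF6 height of 40. None of the 7 had H3K27me3 within 1 kb of either end.

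The 4 genes that could not be placed by the main rule were read with offsets drawn from H3K27ac summits of height 30 or more, a choice made after seeing the data. Gata4, a heart and endoderm factor, then had 6 H3K27me3 peaks covering 5.17 kb, the tallest of 25, and 10 PHF6 peaks. Hand2 had 1 H3K27me3 peak with a height of 10 and a PHF6 height of 27 at its start. Gata6 had H3K27ac and PHF6 heights of 15 and 23 in its locus and Sox17 of 16 and 27, with no H3K27me3 at either. The offsets on the flanks of Gata4 and Gata6 disagreed even then, and the offset of Sox17 rested on 1 matched start, so the values of these 3 are uncertain.

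Other genes of the same families were read by the same rules. Of 147 such genes by symbol, 94 were placed with a listed start, and 18 of these had H3K27me3 there (19.1%, 11.8 to 28.6), 69 had H3K27ac (73.4%) and 86 had PHF6 (91.5%). The H3K27me3 and PHF6 shares of the regulators lay close to these, and the intervals overlap. In the gene body plus 10 kb, 56 of 131 placed family genes had H3K27me3 (42.7%, 34.1 to 51.7), beside 45.0% of the regulators. The tallest H3K27me3 heights were 26 at Foxb2, 25 at Wnt9a, 23 at Barhl1, 21 at Nkx1-2 and 19 at Wnt10b. H3K27ac split these relatives more widely, with a median height of 23 and 17 of 69 at 100 or more (24.6%, 15.1 to 36.5). The tallest were Foxp1 at 351, Dlx1 at 347, Bmp2k at 329, Foxj3 at 325 and Foxc1 at 321. Bmp2k matched the symbol rule but encodes a kinase. Foxp1 is a B-cell transcription factor, and Pax5 had 313.

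At their starts, Hox genes had H3K27me3 at 4 of 22 listed starts (18.2%, 5.19 to 40.3), H3K27ac at 17 with a median height of 22, and PHF6 at 21. In the gene body plus 10 kb, 32 of 39 Hox genes had H3K27me3 (82.1%, 66.5 to 92.5), beside 45.0% of the regulators. The median tallest H3K27ac there was 86 against 21. Hox genes stand close together in clusters, so neighbouring windows share peaks and the interval of the Hox loci is too narrow. Housekeeping genes differed in height: 2 of 9 starts had H3K27me3, with heights of 66 at Eef1a1 and 47 at Rps3, and all 9 had H3K27ac with a median of 323. H3K27me3 at a start therefore occurred at a like share of housekeeping genes (22.2%), and whether the tall peaks at those genes have the same source as the low ones at the regulators was not tested.

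**Figure D5:**
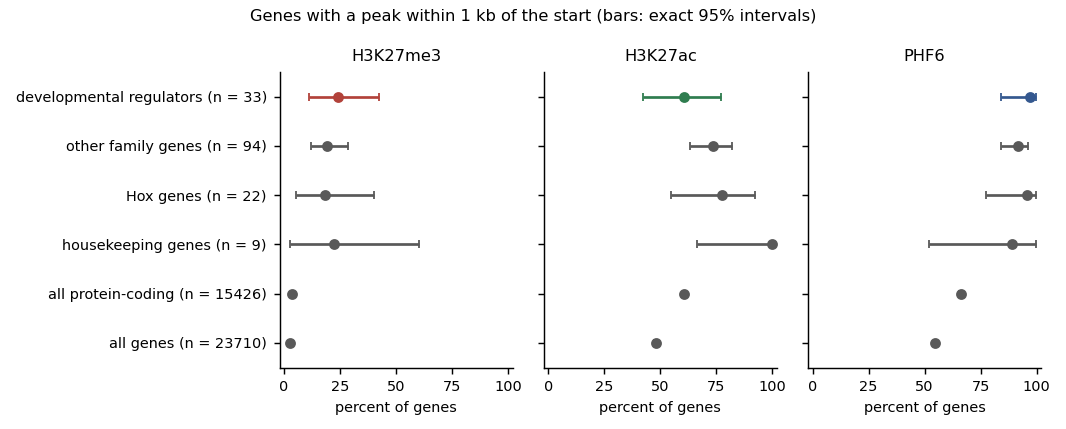
Percent of genes with a peak within 1 kb of the start, by list and library, with exact 95% binomial intervals and the number of placed genes with a listed start. For H3K27me3 the regulators at 24.2 percent lie beside other family genes at 19.1, Hox genes at 18.2 and housekeeping genes at 22.2, and above all genes at 2.75.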

How the data were processed

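Peak and summit lists for 3 ChIP libraries (PHF6, H3K27ac, H3K27me3; 1 library each) were analysed; the input library was not used. MACS 1.4.0, Bowtie2, SAMtools and mm9 are named in the submitters' processing notes, without roles or options. Per the file names, all lists used a threshold of 1e-6, and a local background was left out for PHF6 and H3K27ac only, which could change which low peaks were kept. The score deposited by the authors with each peak starts at 60. The signal deposited by the authors is a whole-number summit height of at most 400 in each list. Both are the authors' own values, were used only within 1 list, and the read depth is unknown.

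The gene positions at hand were GRCm38.p6 (RefSeq), so genes were moved to mm9 by local offsets at which H3K27ac summits of height 200 or more best matched 28322 listed starts within 600 bp, of which 5532 matched. A gene was placed where the offsets on either side agreed within 1000 bp. The moved positions were checked with summits that had set no offset. Of PHF6 summits of height 40 or more, 66.5% lay within 1 kb of a moved start, against 8.2% for unmoved starts. Of H3K27ac summits of height 100 to 199, 46.6% did, against 6.89%. The PHF6 check is not independent of the offsets, since 90.9% of starts with H3K27ac of 100 or more and no H3K27me3 also had PHF6. On simulated data for 49554 genes, 93.2% were placed and 99.5% of those lay within 250 bp of their true place. The simulated offsets took the stepwise form that the method assumes and were smaller than the largest in the data. These values therefore do not measure accuracy on the real lists, where 41174 of 49943 genes were placed. Because H3K27ac summits set the offsets, genes near many active starts are placed most securely. An offset was called well supported with at least 10 matched starts and at least 3 times those of the next best offset. This held for 24 of the 33 genes. Foxd3 had 4 matched starts against 4, Sim1 had 7 against 4, and T, Neurog2 and Isl1 had 9 against 4. Bmp4, Sox1, Msx1 and Zic1 were also outside.

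The start was the outer 5′ end of the gene record, with the strand from RefSeq promoter windows, which matched 34 of 44 genes. A peak counted when it overlapped the window by at least 1 bp. Shares carry exact (Clopper-Pearson) 95% intervals. No test was made, since each antibody had 1 library. All 44 genes were accounted for, and genes named from the family list were the 5 with the tallest H3K27me3 and the 5 with the tallest H3K27ac at a start. The genes and lists were chosen with earlier results of these data known. Alternatives were other windows, a score of at least 100, leaving out regions in all 3 lists, the summit inside the window, other listed starts and other offsets. The states read at any listed start, and the shares of all genes without flanks, were added after seeing the data. The software was SciPy 1.17.1, pandas 2.3.3 and matplotlib 3.10.9 under Python 3.11.15.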

Additional observations from a re-analysis of the deposited data

How the results depend on the processing

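Of 54 alternatives, 41 gave a share inside the 95% interval of the reported one. For the regulators that interval covers counting error over 33 or 40 genes, so a share inside it can still have changed much. With the summit inside the window the H3K27me3 share at starts fell from 24.2% to 12.1% (all genes 1.75%) and was counted as inside. Leaving out regions present in all 3 lists moved the H3K27me3 share at starts to 9.09% (all genes 0.704%) and the PHF6 share to 78.8% (all genes 52.3%), fewer peaks by construction. Requiring the PHF6 summit inside the window gave 63.6% (all genes 48.0%). Windows of 2.5 kb and 5 kb gave PHF6 at 100.0% of starts (all genes 59.4% and 63.9%), as did well supported offsets alone (24 genes), and the 2.5 kb window left 0.0% with none of the 3 peaks. A 5 kb window gave H3K27ac at 78.8% of starts (all genes 54.2%), and any listed start gave 75.8% (all genes 50.7%). In the gene body plus 10 kb, H3K27me3 without the flank gave 27.5% (all genes 8.68%) and H3K27ac with a score of at least 100 gave 70.0%. Over protein-coding genes alone the shares of all genes were 3.4% for H3K27me3, 60.6% for H3K27ac and 66.3% for PHF6. No paired analysis was possible because only 1 library was made per antibody and no result came from a test. Leaving out a library was not possible for the same reason. The unknown depth limits what the absence of a peak can say: a gene without a peak was below the threshold in that library. An offset error beyond 1 kb would move a gene out of its window. All 44 genes together, a choice made after seeing the data, gave 18.2% for H3K27me3, 61.4% for H3K27ac and 97.7% for PHF6. These were read at the start, or at either end where none is listed, and 2 ends give more room for a peak. No share of all genes was computed for that rule, for well supported offsets or for the score of at least 100 in the gene body plus 10 kb. The same holds for none of the 3 peaks at 2.5 kb.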

Other observations

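Marker genes of other lineages were read at the same windows, by count. Of 6 T-lineage genes placed with a listed start, none had H3K27me3 there, 3 had H3K27ac and 5 had PHF6. The H3K27ac heights were 128 at Tcf7, 17 at Gata3 and 15 at Bcl11b. Of 5 myeloid genes, 1 had H3K27me3 (Elane, with a height of 11), 1 had H3K27ac (Cebpa, with a height of 20) and 3 had PHF6. Of 4 erythroid genes, none had H3K27me3, 2 had H3K27ac (Tfrc at 329 and Klf1 at 283) and 3 had PHF6. Of 5 neural or mesenchymal genes, 1 had H3K27me3, 3 had H3K27ac and 4 had PHF6. Nes, the intermediate filament of neural progenitors, had heights of 17 for H3K27me3, 27 for H3K27ac and 36 for PHF6. Tubb3 and Map2 had H3K27ac heights of 137 and 65 and no H3K27me3. These lists are too short for a share to be read against the regulators.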
